A study of Mus musculus with 70 samples.

Results

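The matrix metalloproteinases (Mmp), their tissue inhibitors (Timp) and the Adamts proteases were described across a series of RNA-seq libraries from mouse skeletal muscle. Members were taken by gene symbol: Mmp with a number and at most a letter a or b, Timp1 to Timp4, and Adamts with a number. The rule found 46 genes among 55011 symbols, and those with at least 10 counts in at least 2 of the 70 libraries are described, which left 41: 18 Mmp, 4 Timp and 19 Adamts genes. The 5 genes below that minimum were Mmp1a, Mmp1b, Mmp7, Mmp20 and Mmp21. Mmps are zinc endopeptidases, mostly made as inactive proenzymes, that cut collagens, fibronectin, proteoglycans and growth factor stores in the matrix. Timps bind the active site of Mmps, and Timp3, which is held in the matrix, also inhibits several Adamts proteases. The Adamts family includes enzymes that cut large proteoglycans such as versican and aggrecan (Adamts1, Adamts4, Adamts5, Adamts8, Adamts9, Adamts15, Adamts20) and enzymes that trim fibrillar procollagens (Adamts2, Adamts3, Adamts14). In injured muscle, matrix is broken down and laid again while satellite cells form new fibres, and the fibroblast-like stromal cells are a main source of that matrix.

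The study asked how these stromal cells, labelled MmSCs (muscle mesenchymal stromal cells), respond to injury and to inflammatory cytokines, and how this differs with ablation or blockade of single signals. Sorted libraries came from 1000 double-sorted cells, and the groups formed 6 experiments that were analysed separately. MmSCs of uninjured C57BL/6J hindlimb muscle were taken after intraperitoneal injection of a mixture (Il-17A, Oncostatin M or Osm, TNFa and Il-1b), 2 h (2 libraries), 4 h (1 library) and 8 h (2 libraries) later, or of each cytokine alone or of Osm with one of the others at 2 h (n = 2 each), or of PBS (n = 2). MmSCs, CD31+ cells, CD45+ cells and MuSCs (satellite cells, the muscle stem cells) were taken 1 day after cardiotoxin, a venom toxin that kills muscle fibres, and at day 0 without it, with n = 3 for each population and day. Thy1.1+ and Thy1.1- MmSCs came from Il6RD mice, which carry an Il6 reporter and depleter allele, 12 h after cardiotoxin (n = 3 each). The anti-Cxcl5 and IgG groups (n = 3 each) are whole tibialis anterior muscles of day 7 after cardiotoxin, from mice injected with the antibody or with IgG. MmSCs of DMDmdx mice, which lack dystrophin in all their tissues and have no dystrophin-sufficient controls in the series, had an age of 2.5 weeks in 3 libraries, 7 weeks in 3 libraries and 12.5 weeks in 2 libraries, whose titles give 12 weeks. MmSCs of Il1b-KO mice (n = 3) and Il1b-WT littermates (n = 2) were taken 1 day after cardiotoxin. The labels do not say whether replicates came from separate animals, so p-values measure the spread between these libraries, which may in part be technical.

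Several Mmp genes lie side by side on chromosome 9. Of these, Mmp3, Mmp10, Mmp12 and Mmp13 were called higher in DMDmdx MmSCs at 7 than at 2.5 weeks. For that reason their promoters, which share a motif, are shown. Mmp13, Mmp12, Mmp3, Mmp10, Mmp8 and Mmp27 lie in that order between chr9:7272514 and chr9:7581885 (GRCm38, GENCODE M21). The motif TGAGTCA, read on both strands, is the site classically bound by AP-1, the Fos and Jun transcription factors that inflammatory cytokines activate. Within 250 bases before to 50 bases after the start, it was found in 4 of the 27 described members with a RefSeq window (14.8%) and in 1607 of 27025 symbols with one (5.95%). With members below the count minimum included, it was found in 7 of 32 (21.9%), among them Mmp1a, Mmp1b and Mmp7, also on chromosome 9. All 7 lie in that stretch or beside it, so these shares do not count independent genes. No member elsewhere with a window had the motif. The described members with it were Mmp3, Mmp10, Mmp12 and Mmp13. The 100 bases before each of their starts are printed with the motif in capitals (RefSeq, GRCm38.p6, plus strand).
Mmp3: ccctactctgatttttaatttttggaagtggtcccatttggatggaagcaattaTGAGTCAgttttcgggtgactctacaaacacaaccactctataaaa
Mmp10: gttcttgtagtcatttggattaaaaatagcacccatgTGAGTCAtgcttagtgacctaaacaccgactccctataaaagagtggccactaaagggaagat
Mmp12: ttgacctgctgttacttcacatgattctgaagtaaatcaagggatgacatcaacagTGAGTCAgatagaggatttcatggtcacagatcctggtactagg
Mmp13: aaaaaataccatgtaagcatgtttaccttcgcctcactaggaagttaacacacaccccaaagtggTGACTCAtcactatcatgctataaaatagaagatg
These are chr9:7445722-7445821 for Mmp3, chr9:7502242-7502341 for Mmp10, chr9:7347274-7347373 for Mmp12 and chr9:7272414-7272513 for Mmp13. In Mmp13 the motif is on the minus strand and so reads TGACTCA here, and in Mmp12 it lies in 1 of the 2 windows listed for the gene. A match of letters is a description and not a bound site, and the 4 members differed in level, as given below.

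Library totals ran from 2252373 to 8408842 counts, and levels are given as CPM (counts scaled by the library total), per replicate in number order. Levels of different genes are compared only as CPM per kilobase of exon. The sorted populations carried their own markers: in the population experiment the summed level of the MmSC marker list was at most 4606 CPM outside MmSCs and 18323 to 62681 CPM within them. The endothelial list was 7314 to 10291 CPM in CD31+ cells and at most 128 CPM elsewhere. The leukocyte list was 7249 to 8948 CPM in CD45+ cells and at most 129 CPM elsewhere. The MuSC list was 3729 to 5045 CPM in MuSCs and at most 4.06 CPM elsewhere. Changes are fitted log2 changes ± SE, and a gene was called where the Benjamini-Hochberg adjusted p over all tested genes was under 0.05.

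At rest, MmSCs stood above the other populations in most called members, while Timp4 and Mmp15 were higher in CD31+ cells and Mmp8, Mmp9 and Mmp12 in CD45+ cells. Resting MmSCs differed from resting CD31+ cells in 26 of 38 tested members (19 higher, 7 lower). The background was 47% of all genes called, 24% higher and 23% lower. Against resting CD45+ cells 31 of 38 members were called (25 higher, 6 lower; 56.7% of all genes called, 28.5% higher and 28.2% lower). Against resting MuSCs 22 of 38 were called (18 higher, 4 lower; 40.7% of all genes called, 23.4% higher and 17.3% lower). The shares of members called stood above the background in each of these comparisons, by the most against CD45+ cells. The median member difference was 1.09 above CD31+ cells on the log2 scale, against -0.06 over all tested genes.

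Mmp2, the gelatinase that cleaves denatured collagen, was the leading Mmp per kilobase in MmSCs and in MuSCs at rest. It had 3965, 3942 and 3294 CPM in resting MmSCs, against 6.76, 13.4 and 9.75 CPM in resting CD31+ cells, 4.09, 1.44 and 1.5 CPM in resting CD45+ cells and 1346, 975 and 1043 CPM in resting MuSCs. The order was MmSC, MuSC, CD31+ and CD45+, with no overlap between neighbours, and the difference from MuSCs was 2.34 ± 0.33 (adjusted p = 3.81e-06). Mmp14, the membrane-bound protease that activates pro-Mmp2, had 253, 329 and 316 CPM in resting MmSCs, against 13.5, 25 and 23.2 CPM in CD31+ cells, 10.2, 4.31 and 5.42 CPM in CD45+ cells and 81.5, 80.4 and 68.2 CPM in MuSCs. It was called higher in MmSCs than in each of the others, by 4.21 ± 0.30, 5.69 ± 0.34 and 2.56 ± 0.27 on the log2 scale (adjusted p = 8.98e-11, 3.22e-12 and 7.39e-08). Mmp3 (stromelysin 1), which cuts many matrix proteins and activates other proenzymes, had 220.1, 262 and 78.3 CPM in resting MmSCs, with the third replicate the lowest. It had 0 counts in resting CD45+ cells and in resting MuSCs, which makes it at least 239.9-fold and at least 222.7-fold higher in MmSCs with 3 counts per library as the floor. In resting CD31+ cells it had 3 counts, a ratio of 711-fold with a 95% counting interval of 243 to 3451 (such intervals and floors cover counting error only).

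Of the proteoglycan-cutting and procollagen-trimming enzymes, Adamts5 and Adamts2 made up the largest shares of Adamts level per kilobase in resting MmSCs, 29.1 ± 1.49% and 33.8 ± 0.848% (SD, n = 3). Adamts5 had 431, 522 and 482 CPM in resting MmSCs, against 16.3, 14.7 and 20.1 CPM in CD31+ cells, 0, 1.44 and 0.903 CPM in CD45+ cells and 98.4, 127 and 167 CPM in MuSCs. Adamts2 had 460.0, 521 and 461 CPM in resting MmSCs and no more than 5.62 CPM in any resting library of the other populations. Mmp23, a membrane protein with little sequence shared with other Mmps in its C-terminal part, had 252, 259 and 138 CPM in resting MmSCs and no more than 4.99 CPM in any resting library of the others. For each of these 3 genes the MmSC libraries lay above all others, and each was called in all 3 resting comparisons; the smallest difference was that of Adamts5 from MuSCs, 2.47 ± 0.24 (adjusted p = 1.53e-08). MuSCs stood above MmSCs for Adamts10, with 94.6, 105 and 99.6 CPM in MmSCs and 353, 313 and 276 CPM in MuSCs, a difference of -1.05 ± 0.16 (adjusted p = 1.1e-05). Adamts20 was also higher in MuSCs, with 3 counts over the MmSC libraries, against 18.9, 28.9 and 25.7 CPM in MuSCs (ratio 141-fold lower in MmSCs, 95% counting interval 47.7 to 688). All 3 counts were in MmSC replicate 1, without which Adamts20 was at least 40.8-fold lower in MmSCs (adjusted p = 2.08e-06).

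CD31+ cells, the endothelial population, carried a different inhibitor and a different membrane-type protease. Timp4 had 0.532, 1.13 and 0 CPM in resting MmSCs, against 2298, 2129 and 3439.9 CPM in resting CD31+ cells, and in CD31+ cells it made up 83.7 ± 2.66% of Timp level per kilobase. Mmp15, a membrane-type Mmp, had 0.399, 0 and 1.39 CPM in resting MmSCs, against 85.0, 107 and 74.3 CPM in CD31+ cells, with no overlap for either gene. The differences were -11.81 ± 0.77 (adjusted p = 1.67e-11) for Timp4 and -6.91 ± 0.54 (adjusted p = 3e-10) for Mmp15. Adamts9, which cuts versican, was likewise higher in CD31+ cells, at 2.53, 2.63 and 7.35 CPM in MmSCs, against 66.3, 62.4 and 65.5 CPM in CD31+ cells (-3.68 ± 0.36, adjusted p = 1.59e-08). In CD45+ cells, the leukocytes, Mmp9 (gelatinase B) made up 65.8 ± 7.10% and Mmp8 (the neutrophil collagenase) 18.4 ± 8.34% of Mmp level per kilobase at rest. Mmp9 had 0, 0 and 2.19 CPM in resting MmSCs, against 428, 216 and 357 CPM in resting CD45+ cells (-8.76 ± 0.65, adjusted p = 3.25e-10). Without MmSC replicate 3, the MmSC library with Mmp9 reads, Mmp9 was at least 729-fold lower in MmSCs (adjusted p = 9.46e-10), set against a floor of 3 counts per library. Mmp12, the macrophage elastase, had 0.133, 0 and 0.397 CPM in MmSCs, against 53.6, 47.1 and 44.2 CPM in CD45+ cells, and Mmp13, a collagenase, had 0 counts in MmSCs, against 4.77, 4.60 and 8.42 CPM in CD45+ cells, at least 11.5-fold lower in MmSCs.

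**Figure D1:**
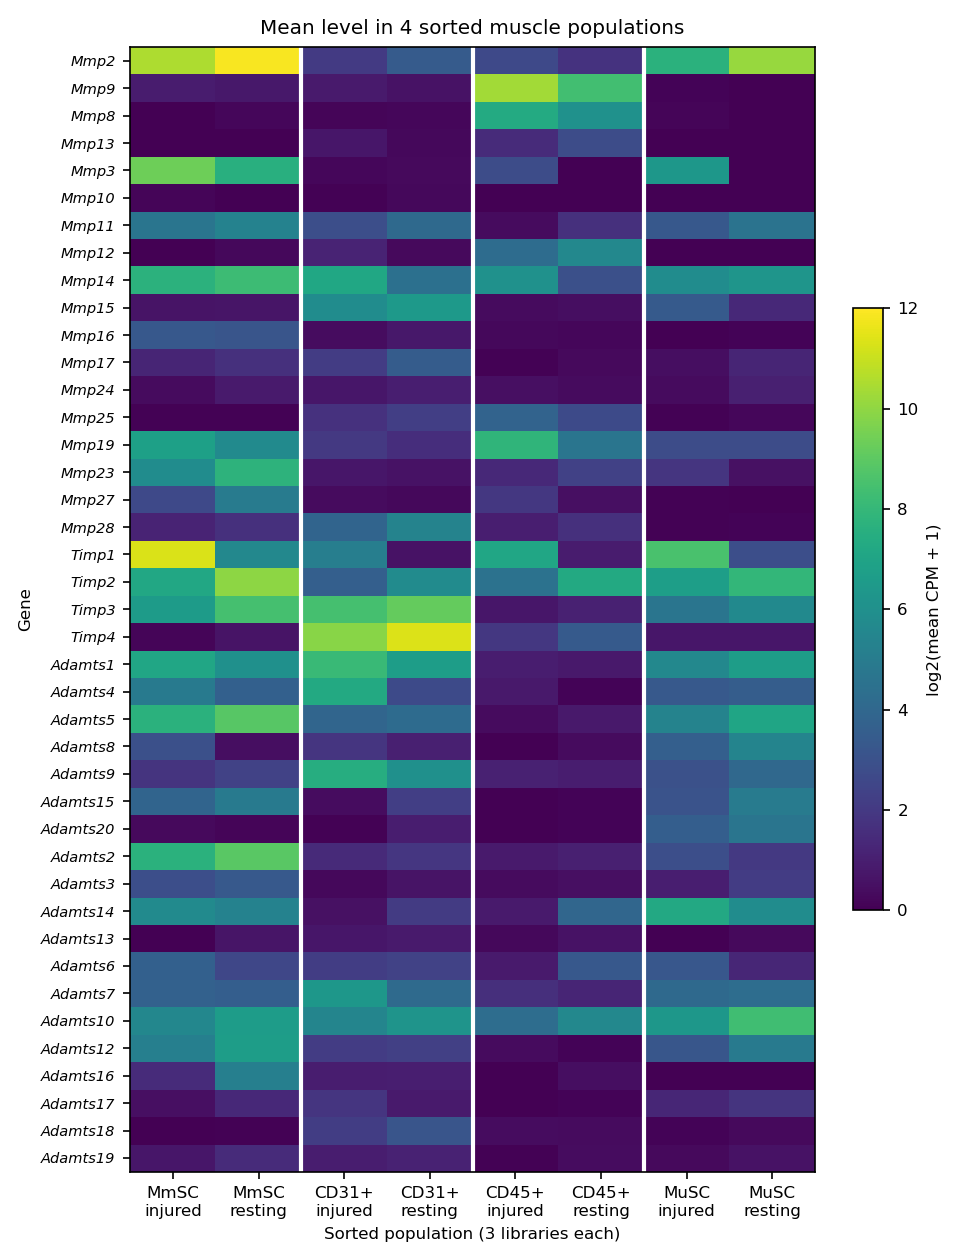
Mean level of the 41 described members (rows, by family and role) in injured and resting libraries of 4 sorted populations (columns), as log2(mean CPM + 1) with n = 3 per column. Mmp2, Adamts2 and Adamts5 are high in both MmSC columns, Timp4 and Mmp15 stand out in CD31+ cells and Mmp9 and Mmp8 in CD45+ cells.

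One day after cardiotoxin, Timp1 was higher in all 4 populations, and Timp2 was lower in all 4. Timp1 is the soluble inhibitor that inflammatory signals commonly induce, and Timp2 inhibits Mmps and also takes part in activating pro-Mmp2. Timp1 had 3193, 1984 and 2486 CPM in injured MmSCs, against 39.6, 43.7 and 58.2 CPM in resting MmSCs. In CD31+ cells it had 49.8, 26.7 and 25.9 CPM in injured CD31+ cells, against 0.654, 0 and 0.914 CPM in resting ones. In CD45+ cells Timp1 had 152, 116 and 138 CPM after injury and 0, 0 and 2.71 CPM at rest. In MuSCs it had 211, 628 and 279.5 CPM after injury and 2.66, 1.33 and 14.9 CPM at rest. Injured and resting libraries did not overlap in any population, and the level in injured MmSCs was above that of each other injured population. The part of MmSC reads in the Timp1 of the other sorted populations was not tested. The changes were 5.5 ± 0.51 (adjusted p = 1.74e-08) in MmSCs, 5.94 ± 0.84 (adjusted p = 1.4e-05) in CD31+ cells, 7.58 ± 0.74 (adjusted p = 8.37e-08) in CD45+ cells and 5.95 ± 0.57 (adjusted p = 2.9e-08) in MuSCs. Without resting replicate 3, the only resting CD45+ library with Timp1 reads, Timp1 was at least 177-fold higher in injured CD45+ cells (adjusted p = 3.3e-07). The Timp1 change in MmSCs was not called different from that in CD31+ cells (-0.43, adjusted p = 0.885), CD45+ cells (-2.08, adjusted p = 0.159) or MuSCs (-0.45, adjusted p = 0.826). As a share of Timp level per kilobase, Timp1 reached 98.2 ± 1.15% in injured MmSCs, against 15.4 ± 5.02% in resting MmSCs (SD, n = 3 each), and in MuSCs 91.9 ± 3.77%, against 8.62 ± 9.63%.

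Timp2 had 111, 209.6 and 120.1 CPM in injured MmSCs, against 1105, 1081 and 817 CPM in resting MmSCs, a change of -3.04 ± 0.30 (adjusted p = 4.16e-08). Its changes were -2.25 ± 0.33 (adjusted p = 2.2e-05) in CD31+ cells, -2.60 ± 0.32 (adjusted p = 1.59e-06) in CD45+ cells and -1.03 ± 0.29 (adjusted p = 0.00667) in MuSCs, with no overlap between injured and resting libraries. Timp3 had 58.2, 155 and 72.1 CPM in injured MmSCs, against 378, 389 and 283 CPM in resting MmSCs (-2.16 ± 0.28, adjusted p = 1.55e-06). About 21.3% of the exon bases of Timp3 overlap another annotated gene, and counting by strand is not given in the sources used here. Timp4, the endothelial inhibitor, had 594, 1183 and 1051 CPM in injured CD31+ cells, against 2298, 2129 and 3439.9 CPM in resting ones (-1.46 ± 0.44, adjusted p = 0.017). That call was lost without injured replicate 1, at -1.22 (adjusted p = 0.0854), or without resting replicate 3, at -1.19 (adjusted p = 0.078), and with DESeq2, at an adjusted p of 0.267. In bulk libraries, fewer cells of a type and less RNA per cell cannot be told apart.

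**Figure D2:**
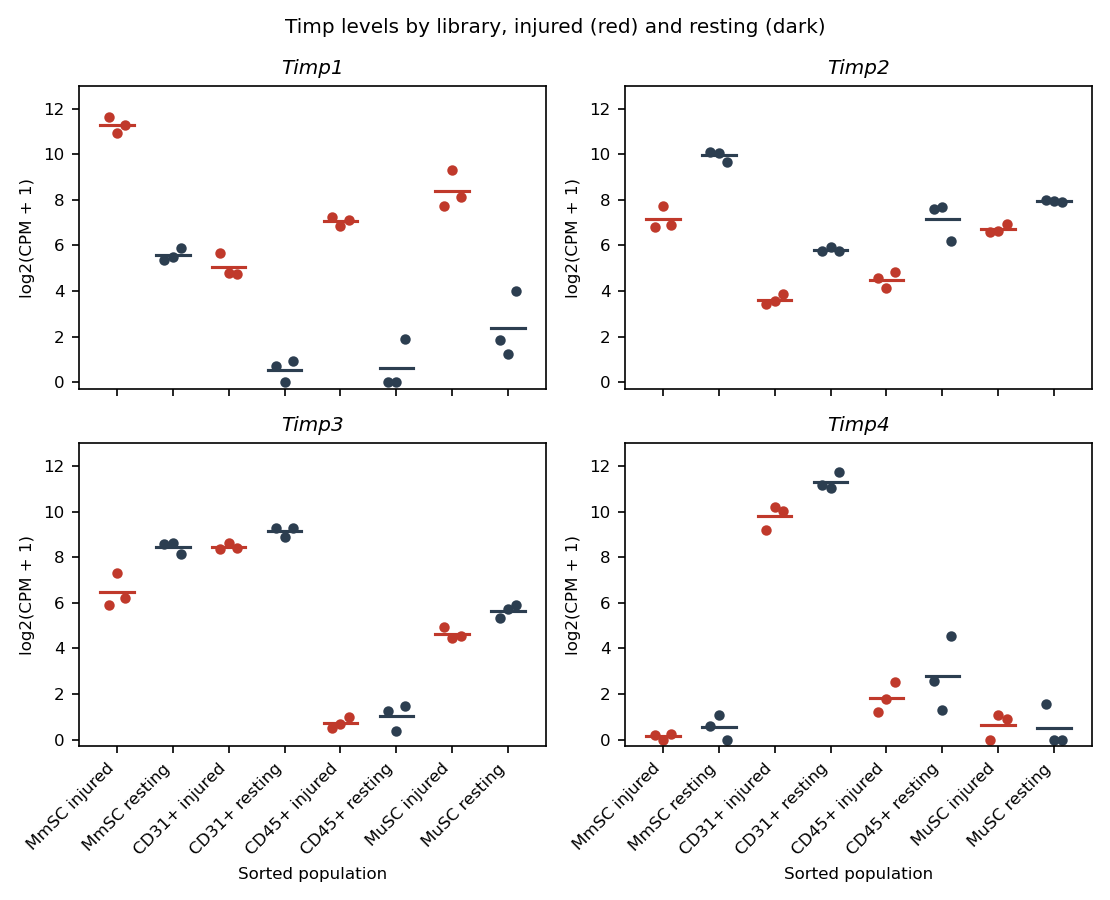
Level of Timp1 to Timp4 in each library of the 4 populations, as log2(CPM + 1), with injured libraries (day 1 after cardiotoxin) beside resting ones (day 0). Each point is 1 library; for Timp1 the injured points lie above the resting points in every population, and for Timp2 below them.

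In MmSCs, injury changed 17 of 38 tested members (4 higher, 13 lower), 44.7%, beside 41.8% of all genes called, 18.2% higher and 23.6% lower, so that the share called was near the background. The median member change was -0.90, against -0.22 over all genes. The 4 higher members were Timp1, Adamts1, Adamts8 and Mmp19. Adamts8, an aggrecanase, had 8.13, 5.53 and 5.93 CPM in injured MmSCs, against 0.133, 0.938 and 0 CPM in resting MmSCs (3.91 ± 0.92, adjusted p = 0.0018). Without resting replicate 2 the other two resting libraries held 1 count of Adamts8, and the ratio was 83.4-fold, 95% counting interval 14.7 to 3322 (adjusted p = 0.0011). Mmp19, a secreted protease that cuts basement membrane proteins, had 112, 111 and 117 CPM in injured MmSCs, against 58.5, 43.5 and 54.7 CPM in resting MmSCs (0.84 ± 0.25, adjusted p = 0.00998), and 28.3% of its exon bases overlap another annotated gene. Adamts1, a versican-cutting enzyme, had 145, 136 and 133 CPM after injury and 59.8, 54.2 and 77.3 CPM at rest (0.85 ± 0.25, adjusted p = 0.0096). Mmp3 had 610.0, 936 and 392.4 CPM in injured MmSCs, against 220.1, 262 and 78.3 CPM in resting MmSCs, and although the groups did not overlap it was not called (1.5 ± 1.01, adjusted p = 0.254). Mmp3 made up 38.8 ± 8.18% of Mmp level per kilobase in injured MmSCs, against 7.13 ± 3.04% in resting MmSCs (SD, n = 3 each).

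The genes that led at rest were lower in injured MmSCs. Mmp2 had 1259, 1745 and 1408 CPM after injury and 3965, 3942 and 3294 CPM at rest (-1.62 ± 0.32, adjusted p = 0.000282). Adamts2, which trims the N-propeptide of fibrillar procollagens, had 192, 211 and 196 CPM after injury and 460.0, 521 and 461 CPM at rest (-1.54 ± 0.35, adjusted p = 0.00102). Adamts5, an aggrecan- and versican-cutting enzyme, had 176, 225 and 208 CPM after injury and 431, 522 and 482 CPM at rest (-1.5 ± 0.23, adjusted p = 1.34e-05). For all 3, every injured library lay below every resting one, but with DESeq2 the Adamts2 change had an adjusted p of 0.0997. Adamts16 had the steepest fall of the called members, with 0.981, 3.35 and 0.926 CPM after injury and 33.9, 46.4 and 24 CPM at rest (-4.57 ± 0.67, adjusted p = 3.6e-05). Mmp23 had 58.2, 72.0 and 39.1 CPM after injury and 252, 259 and 138 CPM at rest (-2.22 ± 0.37, adjusted p = 3.91e-05), and Adamts12, which cuts the cartilage protein Comp, changed by -1.79 ± 0.27 (adjusted p = 1.34e-05). Summed per kilobase, the Timp genes reached 2926 ± 666 CPM per kilobase in injured MmSCs, against 353 ± 37.4 in resting MmSCs, the Mmp genes 900.0 ± 217 against 1399 ± 197, and the Adamts genes 99.4 ± 1.81 against 152 ± 7.89 (SD, n = 3 each). The MmSC marker list moved with these genes, at 18323 to 23296 summed CPM in injured and 50874 to 62681 in resting MmSCs, as did the endothelial list, at 12.6 to 18.6 in injured and 85.1 to 99.1 in resting MmSCs, and the myofibre list, at 1.82 to 11.4 in injured and 111 to 278 in resting MmSCs, and their part in the changes was not tested.

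In injured CD31+ cells, the proteases Mmp14, Adamts4 and Adamts7 were higher than at rest. Of 38 tested members, 15 were called (6 higher, 9 lower), 39.5%. The background was 23.5% of all genes called, 14.2% higher and 9.35% lower. Mmp14 had 149.8, 143 and 128 CPM in injured CD31+ cells, against 13.5, 25 and 23.2 CPM in resting ones (2.82 ± 0.29, adjusted p = 2.24e-07), and became the leading Mmp per kilobase, at 53.8 ± 1.72%, against 8.02 ± 2.27% at rest. Adamts4, an aggrecanase, had 132, 220.3 and 117 CPM after injury and 5.45, 7.80 and 3.05 CPM at rest (4.88 ± 0.51, adjusted p = 2.65e-07). Adamts7, which cuts the cartilage protein Comp and thrombospondin 1, had 64.0, 92.5 and 82.4 CPM after injury and 13.5, 20 and 17.4 CPM at rest (2.26 ± 0.37, adjusted p = 7.28e-05). Injured and resting libraries were apart for all 3 genes. Adamts1 and Adamts9 were also higher, by 1.5 ± 0.26 (adjusted p = 0.000134) and 1.49 ± 0.30 (adjusted p = 0.000711), while Mmp28 fell, at 15.2, 11.0 and 14.7 CPM after injury and 41.0, 37.4 and 40.5 CPM at rest (-1.52 ± 0.39, adjusted p = 0.00573). The macrophage marker list was at 11.4 to 168 summed CPM in injured and 4.06 to 8.23 in resting CD31+ cells, and its part in these changes was not tested.

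In CD45+ cells, 11 of 38 members were called (6 higher, 5 lower), 28.9%. The background was 34.6% of all genes called, 15.9% higher and 18.7% lower. Mmp9 had 1218, 1399 and 1218 CPM in injured CD45+ cells, against 428, 216 and 357 CPM in resting ones (2.18 ± 0.39, adjusted p = 0.000211). Mmp19 had 201, 294 and 204 CPM after injury and 30.6, 14.1 and 27.7 CPM at rest (3.51 ± 0.28, adjusted p = 5.47e-09). Mmp14 had 92.3, 71.3 and 36.6 CPM after injury and 10.2, 4.31 and 5.42 CPM at rest (3.52 ± 0.33, adjusted p = 5.05e-08). Mmp8 had 133, 174 and 170.2 CPM after injury and 45.9, 36.2 and 115 CPM at rest (1.55 ± 0.35, adjusted p = 0.00204). For these 4 proteases each injured library lay above each resting one, but with DESeq2 the Mmp9 change had an adjusted p of 0.317. Adamts14 and Adamts6 were lower, with changes of -3.82 ± 0.62 (adjusted p = 5.16e-05) and -3.14 ± 0.55 (adjusted p = 0.000127). The neutrophil list was at 4802 to 7411 summed CPM in injured and 1258 to 3432 in resting CD45+ cells. The macrophage list was at 18916 to 21042 in injured and 20474 to 27395 in resting CD45+ cells, and the part of cell composition in these changes was not tested.

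In MuSCs, 17 of 38 members were called (6 higher, 11 lower), 44.7%. The background was 38.8% of all genes called, 21.4% higher and 17.4% lower. Mmp2 had 129.8, 302 and 182 CPM in injured MuSCs, against 1346, 975 and 1043 CPM in resting ones (-2.26 ± 0.33, adjusted p = 8.8e-06). Adamts10, a fibrillin-binding protease, had 78.0, 79.0 and 86.0 CPM after injury and 353, 313 and 276 CPM at rest (-1.75 ± 0.16, adjusted p = 1.63e-08). Adamts5 had 41.0, 35.4 and 45.9 CPM after injury and 98.4, 127 and 167 CPM at rest (-1.47 ± 0.24, adjusted p = 3.39e-05). The higher members included Mmp15, at 12.3, 8.13 and 8.32 CPM after injury and 1.69, 2.22 and 0.996 CPM at rest (2.80 ± 0.53, adjusted p = 0.000199), and Adamts14, at 139, 189 and 128 CPM after injury and 46.9, 79.9 and 42.6 CPM at rest (1.66 ± 0.36, adjusted p = 0.000918). Groups were apart for each of these genes. Mmp3 had 0.655, 232 and 10.2 CPM in injured MuSCs and 0 counts in resting MuSCs, at least 84.5-fold higher. Nearly all of its reads were in replicate 2, and without that library it was at least 6.63-fold higher and the call was lost (adjusted p = 0.0695). The stromal marker Pdgfra had 0.328, 54.9 and 28.1 CPM in the same 3 libraries, against 0.242, 0.444 and 0 CPM in resting MuSCs, and its part in the Mmp3 reads was not tested. The MmSC list was at 722 to 1193 summed CPM in injured and 1948 to 2117 in resting MuSCs. The mural list was at 549.5 to 1084 in injured and 1458 to 2588 in resting MuSCs, and their part in the falls was not tested.

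The injury change itself differed between MmSCs and another population in several members. The MmSC change minus the CD31+ change was called in 9 of 38 members, 23.7%, and in 5 without resting MmSC replicate 2. The background was 12.5% of all genes called, 4.78% higher and 7.71% lower. Minus the CD45+ change it was called in 6, 15.8%, a share below that of all genes (25% called, 13.6% higher and 11.5% lower). Minus the MuSC change it was called in 6, 15.8%, beside 7.64% of all genes called, 2.02% higher and 5.62% lower. Mmp14 differed most clearly: its change was -0.77 in MmSCs, against 2.82 in CD31+ cells and 3.52 in CD45+ cells, differences of -3.58 ± 0.39 (adjusted p = 2.53e-06) and -4.29 ± 0.42 (adjusted p = 1.59e-07). The fall of Mmp14 within MmSCs was itself called (adjusted p = 0.0189) but not without any one of the 3 resting libraries or without injured replicate 2, at adjusted p of 0.0685 to 0.172. The injured levels of Mmp14 were nearer to each other than the resting ones, at 211 ± 32.1 CPM in MmSCs, 140.4 ± 11.3 CPM in CD31+ cells and 66.7 ± 28.1 CPM in CD45+ cells (SD, n = 3 each). Adamts1 changed by 0.85 in MmSCs and by -0.91 in MuSCs, where it had 43.3, 53.1 and 45.7 CPM after injury and 105, 100.3 and 102 CPM at rest, and the difference was 1.77 ± 0.36 (adjusted p = 0.00349). Timp2 fell in both but by more in MmSCs, with a difference of -2.02 ± 0.40 (adjusted p = 0.0026).

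Related genes of the pathway were read beside the members, in lists chosen with earlier results of these data known. Over all tested genes, 18.2% were called higher and 23.6% lower in injured MmSCs, with a median change of -0.22. In injured MmSCs, 5 of 19 tested activators, inhibitors and receptors of the proteases were higher and 10 lower, with Adam12, a membrane protease, at 4.25 ± 0.37 (adjusted p = 6.3e-09) and Plaur, the urokinase receptor, at 2.69 ± 0.32 (adjusted p = 4.53e-07), and Pcsk6, a proprotein convertase, at -3.18 ± 0.23 (adjusted p = 1.58e-09). Of 14 tested substrates, 9 were lower and 1 higher in injured MmSCs: elastin (Eln) changed by -3.25 ± 0.25 (adjusted p = 1.12e-09) and fibronectin (Fn1) by -2.52 ± 0.33 (adjusted p = 2.41e-06), while tenascin C (Tnc) was the higher one, at 5.13 ± 0.45 (adjusted p = 7.84e-09). Of 7 tested ADAMTS-like and related proteins, which share the ancillary domains of Adamts enzymes without their protease domain, 5 were lower and none higher at an adjusted p under 0.05. The list medians in injured MmSCs were -0.48 for activators, inhibitors and receptors, -2.03 for substrates and -2.20 for ADAMTS-like and related proteins. In injured CD45+ cells 10 of 19 activators, inhibitors and receptors were higher and 1 lower, beside 15.9% of all genes higher and 18.7% lower. In injured CD31+ cells 6 were higher and 5 lower, beside 14.2% of all genes higher and 9.35% lower, and in injured MuSCs 8 were higher and 4 lower, beside 21.4% of all genes higher and 17.4% lower.

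The 4-cytokine mixture changed a set of proteoglycanases, Mmp3 and Timp1 in MmSCs of uninjured muscle within 2 h. At 2 h, 12 of 33 tested members were called against PBS (7 higher, 5 lower), 36.4%. The background was 38.5% of all genes called, 20.5% higher and 18% lower. At 8 h 19 were called (8 higher, 11 lower), 57.6%. The background was 28.4% of all genes called, 15.6% higher and 12.9% lower. The single 4 h library gave 15 calls (6 higher, 9 lower; 36.4% of all genes called, 19.6% higher and 16.8% lower) and has no replicate, so its spread is assumed to be that of the other groups. Of the 6 tested proteoglycanases, 4 were higher at 2 h and 5 at 8 h, with none lower.

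Adamts4 had 57.4 and 22.9 CPM after PBS, then 1801 and 1826 CPM 2 h after the mixture, 536 CPM at 4 h and 96.7 and 135 CPM at 8 h. Adamts1 had 243 and 172 CPM after PBS, 1835 and 2629 CPM at 2 h, 836 CPM at 4 h and 522 and 522 CPM at 8 h. Both were highest at 2 h and lower at each later time, and still above PBS at 8 h. At 8 h against 2 h, 19 members were called (5 higher, 14 lower; 35.3% of all genes called, 16.6% higher and 18.7% lower). The changes at 2 h were 6.01 ± 0.34 (adjusted p = 1.38e-11) for Adamts4 and 3.94 ± 0.22 (adjusted p = 1.01e-11) for Adamts1, and at 8 h against 2 h they were -4.44 ± 0.31 (adjusted p = 9.67e-10) and -2.56 ± 0.20 (adjusted p = 5.58e-09). The Adamts4 change at 8 h was 1.57 ± 0.29 (adjusted p = 0.000294), and 2.38 (adjusted p = 1.03e-05) without PBS replicate 1. Adamts8 had 2.84 and 1.12 CPM after PBS, 105 and 36.8 CPM at 2 h, 44.2 CPM at 4 h and 29.7 and 29.3 CPM at 8 h, with a change at 2 h of 5.65 ± 0.56 (adjusted p = 6.58e-08). Adamts9 rose by 2.94 ± 0.36 (adjusted p = 1.25e-06) at 2 h. Adamts15 kept another course, with 59.5 and 69.9 CPM after PBS, 71.9 and 59.5 CPM at 2 h, 77.8 CPM at 4 h and 296 and 317 CPM at 8 h, and was called at 8 h only (2.29 ± 0.26, adjusted p = 7.89e-07).

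Mmp3 had 55.6 and 62.7 CPM after PBS, 238 and 170.2 CPM at 2 h, 494 CPM at 4 h and 638 and 1014 CPM at 8 h, higher at each later time. Its change was 2.30 ± 0.64 (adjusted p = 0.00657) at 2 h, where the call was lost without PBS replicate 1 (2.20, adjusted p = 0.0567), and 3.85 ± 0.67 (adjusted p = 0.000148) at 8 h. Per kilobase, Mmp3 made up 3.23 ± 0.105% of Mmp level after PBS, 11.9 ± 1.59% at 2 h and 41.2 ± 5.49% at 8 h (SD, n = 2 each). Timp1 had 111 and 45.1 CPM after PBS, 1348 and 1025 CPM at 2 h, 1734 CPM at 4 h and 1377 and 1332 CPM at 8 h, and the 2 h and 8 h libraries overlapped. Its changes were 4.44 ± 0.41 (adjusted p = 2.59e-08) at 2 h and 4.17 ± 0.41 (adjusted p = 1.37e-07) at 8 h. Among genes that fell, Adamts10 had 228 and 256 CPM after PBS, 63.1 and 79.7 CPM at 2 h and 59.7 and 47.2 CPM at 8 h (-1.25 ± 0.22, adjusted p = 0.000129 at 2 h). Mmp11, stromelysin 3, which cuts few matrix proteins, had 50.8 and 54.3 CPM after PBS, 7.81 and 7.30 CPM at 2 h, 0.951 CPM at 4 h and 36.1 and 33.9 CPM at 8 h (-2.28 ± 0.22, adjusted p = 4.9e-08 at 2 h). Mmp11 was thus low at 2 h and 4 h and at 8 h did not pass the test (-0.54 ± 0.20, adjusted p = 0.0503). Mmp23 and Timp2 were called lower at 8 h, with changes of -1.64 ± 0.26 (adjusted p = 4.83e-05) and -1.0 ± 0.16 (adjusted p = 6.12e-05). The other described members with TGAGTCA did not follow Mmp3: over the 21 libraries of this experiment Mmp10 reached 0.743 CPM, Mmp13 1.57 CPM and Mmp12 2.44 CPM. The endothelial marker list was at 255 to 313 summed CPM after PBS, 104 to 121 at 2 h, 52.8 at 4 h and 63.0 to 66.7 at 8 h, and its part in the falls was not tested.

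Single cytokines at 2 h differed in which members they moved. Il-1b called 13 of 33 members (7 higher, 6 lower; 33.1% of all genes called, 19.5% higher and 13.7% lower). Osm called 14 (5 higher, 9 lower; 34.3% of all genes called, 18.9% higher and 15.5% lower). TNFa called 9 (2 higher, 7 lower; 14.8% of all genes called, 10.2% higher and 4.62% lower). Il-17A called 6, all lower, beside 4.95% of all genes called, 2.84% higher and 2.11% lower, and all of these comparisons share the same PBS libraries. The Il-17A count was 1 without PBS replicate 1 or without Il-17A replicate 2, and 3 without PBS replicate 2, the TNFa count was 3 without TNFa replicate 2, and the Osm count was 9 without PBS replicate 2. Adamts4 had 338 and 342 CPM after Il-1b, 217 and 242 CPM after Osm, 87.8 and 62.9 CPM after TNFa and 14.0 and 5.86 CPM after Il-17A, against 57.4 and 22.9 CPM after PBS. It was called higher after Il-1b (3.40 ± 0.31, adjusted p = 3.06e-08) and Osm (2.76 ± 0.30, adjusted p = 3.81e-07) and lower after Il-17A (-1.99 ± 0.35, adjusted p = 0.00325). After TNFa its change was 1.06 ± 0.29 (adjusted p = 0.0176), and the call was lost without PBS replicate 2, at 0.53 (adjusted p = 0.278), and with DESeq2, at an adjusted p of 0.0695; it was 1.85 (adjusted p = 0.000453) without PBS replicate 1. The Il-17A call was lost without PBS replicate 1, at -1.17 (adjusted p = 0.0825), or without Il-17A replicate 2, at -1.51 (adjusted p = 0.0634). Adamts5 was called lower after each single cytokine, with 503 and 435 CPM after Il-17A, against 986 and 966 CPM after PBS (-1.05 ± 0.14, adjusted p = 0.000429). Timp1 had 628 and 229 CPM after Il-1b and 506 and 543 CPM after Osm, against 111 and 45.1 CPM after PBS, with changes of 2.75 ± 0.38 (adjusted p = 1.14e-05) and 3.00 ± 0.39 (adjusted p = 3.94e-06). It did not pass the test after TNFa, at 0.31 ± 0.37 (adjusted p = 0.642), or after Il-17A, at -0.51 ± 0.38 (adjusted p = 0.509).

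Mmp3 had 1368 and 178 CPM after Il-1b, against 55.6 and 62.7 CPM after PBS (3.98 ± 0.67, adjusted p = 0.000105). The 2 Il-1b libraries were far apart, and without replicate 1 the change was 1.97 (adjusted p = 0.00751). After Osm, Mmp3 had 215 and 138 CPM, and its call (1.83 ± 0.63, adjusted p = 0.0292) was lost without PBS replicate 1, PBS replicate 2 or Osm replicate 1, at adjusted p of 0.11 to 0.159. Mmp11 had 4.17 and 4.90 CPM after Il-1b, against 50.8 and 54.3 CPM after PBS (-3.21 ± 0.24, adjusted p = 1.98e-09). Mmp9 had 0 counts after TNFa, against 5.38 and 2.72 CPM after PBS, at least 9.43-fold lower, and that call was lost without either TNFa library, at adjusted p of 0.0552 to 0.0626. Against Osm, Il-1b called 5 of 33 members (9.65% of all genes called, 5.7% higher and 3.95% lower), among them Mmp11 (-1.78 ± 0.24, adjusted p = 2.59e-05) and Adamts9, at 13.4 and 14.8 CPM after Il-1b and 2.71 and 4.41 CPM after Osm (2.05 ± 0.35, adjusted p = 0.000376).

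Osm with Il-1b gave higher levels of some proteoglycanases and of Timp1 than either cytokine alone. Against Il-1b alone, 5 of 33 members were called (4 higher, 1 lower; 7.03% of all genes called, 3.7% higher and 3.33% lower). Against Osm alone 8 were called, 7 higher and 1 lower (13% of all genes called, 7.21% higher and 5.78% lower). Adamts4 had 1062 and 1011 CPM after Osm with Il-1b, against 338 and 342 CPM after Il-1b and 217 and 242 CPM after Osm, differences of 1.73 ± 0.28 (adjusted p = 0.000375) and 2.36 ± 0.28 (adjusted p = 6.55e-06). Adamts8 had 48.6 and 40.2 CPM after the pair, against 6.78 and 8.11 CPM after Il-1b and 2.86 and 5.79 CPM after Osm, differences of 2.68 ± 0.47 (adjusted p = 0.001) and 3.54 ± 0.50 (adjusted p = 4.54e-05). In both genes the pair's libraries lay above those of either single cytokine. Timp1 had 1605 and 1300.1 CPM after the pair, above Il-1b alone by 1.91 ± 0.37 (adjusted p = 0.00224) and above Osm alone by 1.66 ± 0.36 (adjusted p = 0.0038), where the call against Osm was lost without Osm replicate 1 (1.58, adjusted p = 0.0509). After Osm with TNFa, 13 of 33 members were called against PBS, 6 higher and 7 lower (37% of all genes called, 20.5% higher and 16.6% lower). Adamts4 had 734 and 645 CPM there, and Timp1 had 1172 and 817 CPM. After Osm with Il-17A, 15 were called (35.6% of all genes called, 19.4% higher and 16.2% lower), and 8 without replicate 1 of that group, with Adamts4 at 239 and 230.2 CPM and Timp1 at 597 and 514 CPM, both near the values after Osm alone. Osm with Il-1b called 12 against PBS, 6 higher and 6 lower (41.9% of all genes called, 21.7% higher and 20.2% lower). The calls after Osm with Il-17A were 5 higher and 10 lower. Not every proteoglycanase rose: Adamts5 was called lower against PBS after each pair. Adamts15 was called lower after Osm with Il-1b, Osm with TNFa, TNFa alone and Il-17A alone.

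**Figure D3:**
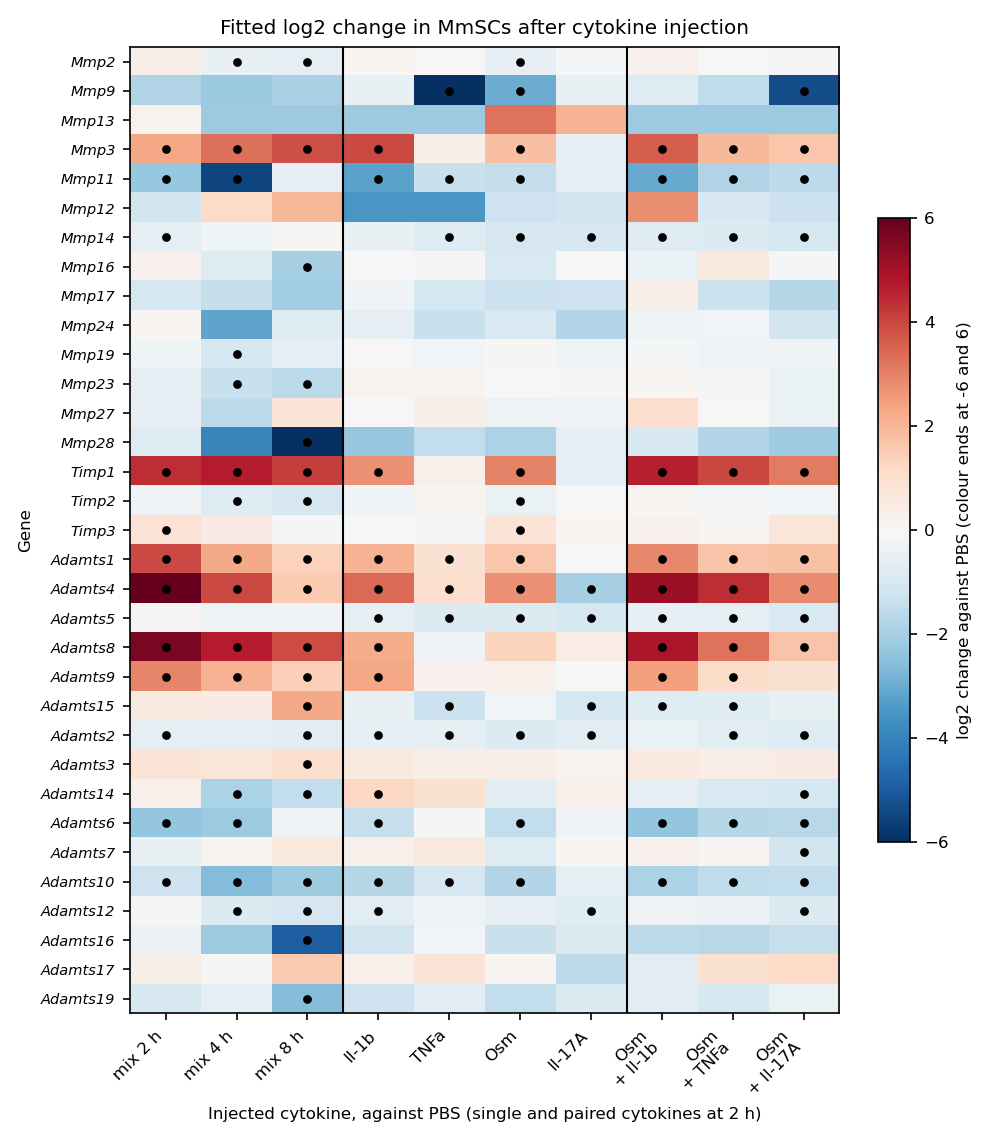
Fitted log2 change against PBS of the 33 tested members (rows) in MmSCs after the mixture at 2, 4 and 8 h, single cytokines and pairs with Osm at 2 h (columns). Black dots mark called changes, the colour scale ends at -6 and 6, and values of genes with 0 counts in a group depend on the prior count of the fit; Adamts1, Adamts4 and Timp1 are called higher in the 3 mixture columns, Il-1b and Osm.

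In the pathway lists, 11 of 19 tested activators, inhibitors and receptors were higher and 1 lower 2 h after the mixture, beside 20.5% of all genes higher and 18% lower, with Plaur at 3.79 ± 0.20 (adjusted p = 4.06e-12) and the hyaluronan receptor Cd44 at 3.74 ± 0.14 (adjusted p = 8.76e-14). At 8 h, 5 were higher and 6 lower, beside 15.6% of all genes higher and 12.9% lower. Of the 14 tested substrates 3 were higher and none lower at an adjusted p under 0.05 at 2 h, against 2 higher and 9 lower at 8 h, and the median substrate change was 0.14 at 2 h and -1.03 at 8 h, beside medians of -0.06 and 0.07 over all tested genes.

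Thy1.1+ and Thy1.1- MmSCs of Il6RD mice were compared to set Il6-reporting stroma beside the rest at 12 h after cardiotoxin. Il6 had 77.4, 53.6 and 259 CPM in Thy1.1+ cells, against 48.1, 22.7 and 61.6 CPM in Thy1.1- cells, higher in Thy1.1+ in each replicate number, and the groups overlapped. Without regard to replicate number, 0 of 27 tested members and 0% of all genes were called by edgeR. An unadjusted p under 0.05 was found for 7 members, and the share of all genes at that unadjusted cutoff is not given here. DESeq2 called 2 members, and without Thy1.1+ replicate 3 edgeR called 1. The same-numbered libraries deviated together, with correlations of 0.587, 0.629 and 0.812, and with the replicate number as a block 11 of 27 members were called, 2 higher and 9 lower, where 4.93% of all genes were called higher and 5.81% lower. The median member change was -0.32 in that fit, against -0.03 over all tested genes. Mmp3 had 3238, 2850.4 and 2353 CPM in Thy1.1+ cells, against 1624, 1470.0 and 979.8 CPM in Thy1.1- cells, with no overlap, a paired change of 1.12 ± 0.10 (adjusted p = 1.19e-05). Timp1 had 3145, 3737 and 1063 CPM in Thy1.1+ cells, against 1652, 2095 and 684 CPM in Thy1.1- cells (0.85 ± 0.10, adjusted p = 0.000118); the groups overlapped, since both libraries of replicate 3 were low, and within each number Thy1.1+ was the higher. Mmp3 was 73.5 ± 15% of Mmp level per kilobase in Thy1.1+ cells, against 51.0 ± 13.6% in Thy1.1- cells (SD, n = 3 each).

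The 9 lower members were Adamts2, Adamts5, Adamts10, Adamts15, Mmp11, Mmp23, Mmp27, Timp2 and Timp3. Mmp11 had 18.7, 28.8 and 10.6 CPM in Thy1.1+ cells, against 40.6, 81.7 and 64.5 CPM in Thy1.1- cells (-1.67 ± 0.24, adjusted p = 0.000527). Adamts15 had 7.92, 7.32 and 26.0 CPM in Thy1.1+ cells, against 39.5, 44.2 and 42.0 CPM in Thy1.1- cells (-1.74 ± 0.30, adjusted p = 0.00239). Adamts5 had 437, 389.9 and 675 CPM in Thy1.1+ cells, against 724, 782 and 1061 CPM in Thy1.1- cells (-0.74 ± 0.10, adjusted p = 0.000505). Timp2 had 149, 174 and 301 CPM in Thy1.1+ cells, against 289.7, 281 and 453 CPM in Thy1.1- cells (-0.69 ± 0.10, adjusted p = 0.000955). Each of these 4 was lower in Thy1.1+ cells within every replicate number. The MmSC marker list was at 20242 to 35244 summed CPM in Thy1.1+ and 28103 to 44990.3 in Thy1.1- libraries. The endothelial list was at 8.73 to 16.5 in Thy1.1+ and 31.5 to 55.5 in Thy1.1- libraries, and their part was not tested. In the pathway lists, with the block, 3 of 19 tested activators, inhibitors and receptors were higher and 7 lower, 2 of 14 substrates higher and 7 lower, and 3 of 5 ADAMTS-like and related proteins lower; none was called without it.

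**Figure D4:**
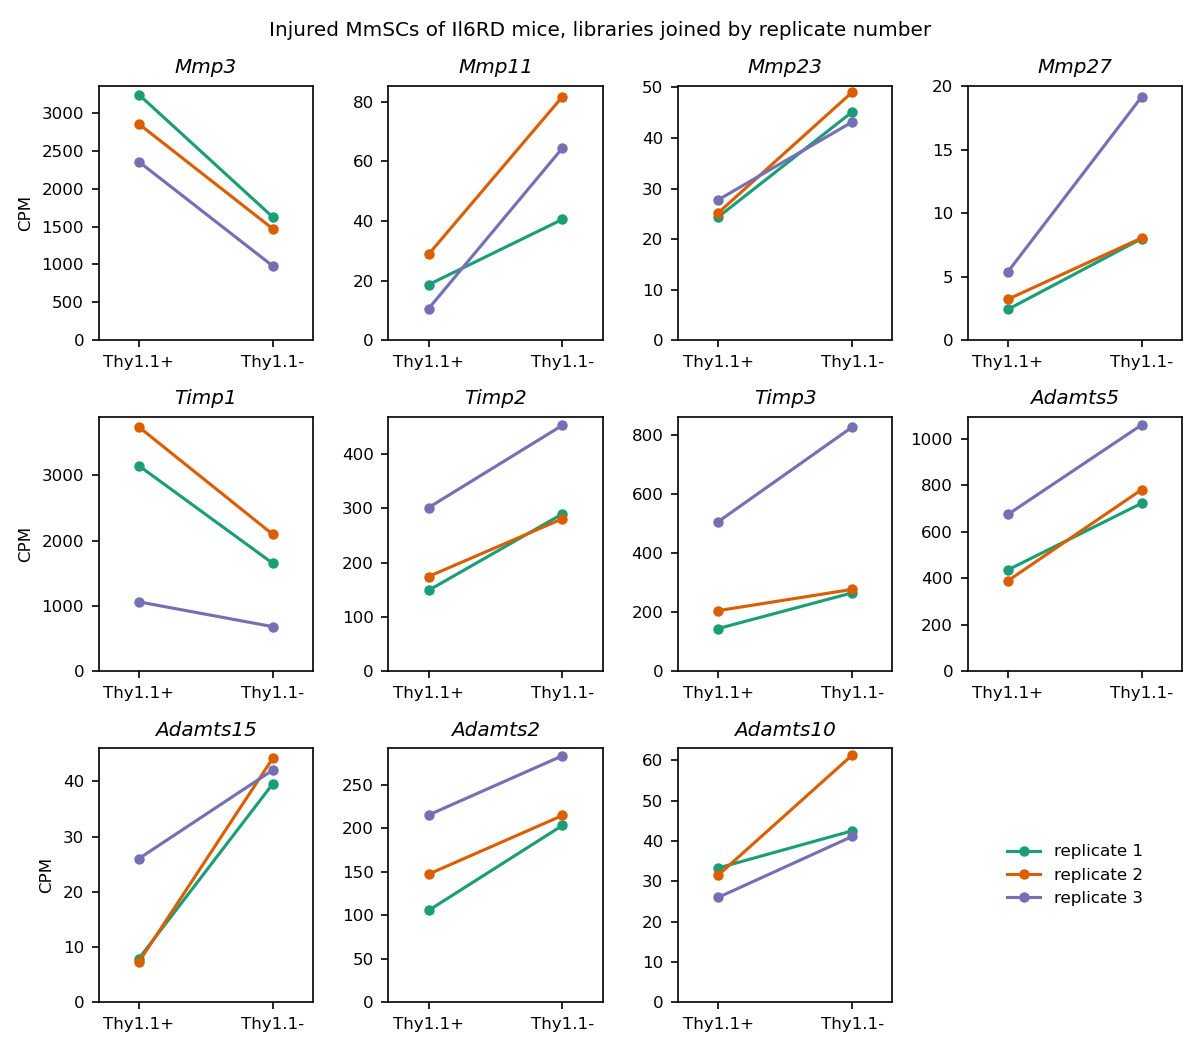
Level in CPM of the 11 members called in the fit with the replicate number as a block, in Thy1.1+ (left) and Thy1.1- (right) MmSCs 12 h after cardiotoxin. Each point is 1 library and lines join libraries with the same replicate number; the lines go down to the right for Mmp3 and Timp1 and up for the other 9.

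In dystrophic mice, MmSCs differed most between 2.5 and 7 weeks of age. Without dystrophin-sufficient controls, age and disease cannot be told apart in these comparisons. At 7 weeks, 24 of 32 tested members were called against 2.5 weeks (14 higher, 10 lower), 75%. The background was 44.6% of all genes called, 21.9% higher and 22.7% lower. At 12.5 weeks 7 members were called against 7 weeks (4 higher, 3 lower; 5.9% of all genes called, 3.52% higher and 2.39% lower). Against 2.5 weeks 18 were called (26.3% of all genes called, 13.9% higher and 12.4% lower). The count against 7 weeks was 1 without 12.5-week replicate 1, 2 without 12.5-week replicate 2 and 4 without 7-week replicate 2. The stromelysins Mmp3 and Mmp10, the metalloelastase Mmp12 and the collagenase Mmp13 were among the higher members at 7 weeks. Their promoters were printed above because of these calls, so the shared motif is no separate result here.

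Mmp13 had 0.628, 0 and 0.215 CPM at 2.5 weeks, 36.1, 65.6 and 98.5 CPM at 7 weeks and 26.9 and 26.8 CPM at 12.5 weeks. It was nearly absent at the youngest age and highest at 7 weeks, a change of 7.85 ± 0.54 (adjusted p = 8.06e-08). From 7 to 12.5 weeks its change was -1.21 ± 0.33 (adjusted p = 0.045), and that call was lost without 7-week replicate 2 or 3 or either 12.5-week library, at adjusted p of 0.112 to 0.247, and with the replicate number as a block, which does not pair these libraries, at -0.78 (adjusted p = 0.127). Mmp3 had 208, 256 and 285 CPM at 2.5 weeks, 1134, 1307 and 1261 CPM at 7 weeks and 1226 and 1223 CPM at 12.5 weeks (2.37 ± 0.14, adjusted p = 1.83e-08 from 2.5 to 7 weeks). Mmp10 (stromelysin 2) had 0.209, 0.197 and 0.215 CPM at 2.5 weeks, 6.54, 16.5 and 6.33 CPM at 7 weeks and 3.09 and 3.14 CPM at 12.5 weeks. With 3 counts over the youngest libraries, the Mmp10 ratio of 7 to 2.5 weeks was 48.1-fold (95% counting interval 16.2 to 236). Mmp12 had 0.209, 0.197 and 0 CPM at 2.5 weeks and 0.503, 3.40 and 7.23 CPM at 7 weeks. At 12.5 weeks it had 1.55 and 4.28 CPM. With 2 counts over the youngest libraries, the Mmp12 ratio of 7 to 2.5 weeks was 24.5-fold (6.47 to 208), and its 7-week libraries were far apart. Mmp19 had 14.0, 15.5 and 21.9 CPM at 2.5 weeks, 279, 245 and 326 CPM at 7 weeks and 119 and 135 CPM at 12.5 weeks. Its change was 4.11 ± 0.18 (adjusted p = 2.37e-09) at 7 weeks, and at 12.5 weeks -1.07 ± 0.17 (adjusted p = 0.00302) against 7 weeks, where the call was lost without 12.5-week replicate 1 (-1.04, adjusted p = 0.0667). Mmp9 was higher at 7 weeks by 2.94 ± 0.58 (adjusted p = 0.00101). At rest, Mmp9, Mmp12 and Mmp13 were higher in CD45+ cells than in MmSCs, as given above, and the part of leukocyte reads here was not tested. Mmp2 stayed the leading Mmp per kilobase, at 78.0 ± 1.65%, 50.8 ± 1.57% and 61.2 ± 1.98% of Mmp level at 2.5, 7 and 12.5 weeks.

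Among the inhibitors, Timp1 had 29.3, 133 and 152 CPM at 2.5 weeks, 1702, 1764 and 1317 CPM at 7 weeks and 593 and 622 CPM at 12.5 weeks, with no overlap between ages. Its change from 2.5 to 7 weeks was 3.98 ± 0.41 (adjusted p = 3.45e-06), and from 7 to 12.5 weeks it was -1.30 ± 0.42 (adjusted p = 0.0828), which did not pass the test. Timp2 and Timp3 took the opposite course: Timp2 had 919, 807 and 891 CPM, 378, 491 and 417 CPM and 694 and 708 CPM at 2.5, 7 and 12.5 weeks (-0.96 ± 0.12, adjusted p = 1.79e-05 from 2.5 to 7 weeks). Timp3 changed by -1.5 ± 0.12 (adjusted p = 3.69e-07) over the same ages. At 12.5 weeks Timp2 was called higher than at 7 weeks (0.80 ± 0.13, adjusted p = 0.00294), which was lost without 12.5-week replicate 1 (0.76, adjusted p = 0.0563). As a share of Timp level per kilobase, Timp1 was 27.9 ± 15.4% at 2.5 weeks, 93.2 ± 0.963% at 7 weeks and 76.7 ± 0.0473% at 12.5 weeks.

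At 7 against 2.5 weeks, 2 of 6 tested proteoglycanases were called higher (Adamts4 and Adamts15) and 3 lower (Adamts1, Adamts5 and Adamts9), and Adamts8 was not called. Adamts4 had 39.4, 129 and 96.3 CPM at 2.5 weeks, 665, 690.4 and 668 CPM at 7 weeks and 1007 and 895 CPM at 12.5 weeks (2.98 ± 0.29, adjusted p = 2.52e-06 from 2.5 to 7 weeks). Adamts1 had 3506, 3338 and 3876 CPM at 2.5 weeks, 1607, 1505 and 1577 CPM at 7 weeks and 2210.5 and 2243 CPM at 12.5 weeks (-1.13 ± 0.10, adjusted p = 1.31e-06). Adamts5 had 789.9, 711 and 904 CPM at 2.5 weeks, 307, 379 and 342 CPM at 7 weeks and 371 and 476 CPM at 12.5 weeks (-1.16 ± 0.13, adjusted p = 7.33e-06). So Adamts4 was higher and Adamts1 and Adamts5 were lower at both later ages than at 2.5 weeks. Adamts10 and Adamts19 were also lower at 7 than at 2.5 weeks, with changes of -1.47 ± 0.14 (adjusted p = 1.63e-06) and -2.92 ± 0.38 (adjusted p = 3.15e-05). The endothelial marker list was at 379 to 439 summed CPM at 2.5 weeks, 49.3 to 57.4 at 7 weeks and 70.5 to 100.4 at 12.5 weeks. The mural list was at 64.0 to 99.1, 169 to 221 and 147, and their part in the changes was not tested. In the pathway lists at 7 against 2.5 weeks, 7 of 19 activators, inhibitors and receptors were higher and 4 lower, 7 of 14 substrates higher and 3 lower, and 1 of 7 ADAMTS-like and related proteins higher and 5 lower, beside 21.9% of all genes higher and 22.7% lower. Tnc changed by 3.96 ± 0.30 (adjusted p = 2.02e-07) and the small proteoglycan biglycan (Bgn) by 1.95 ± 0.11 (adjusted p = 1.33e-08), while Reck, a membrane inhibitor of Mmps, changed by -2.18 ± 0.16 (adjusted p = 1.22e-07).

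**Figure D5:**
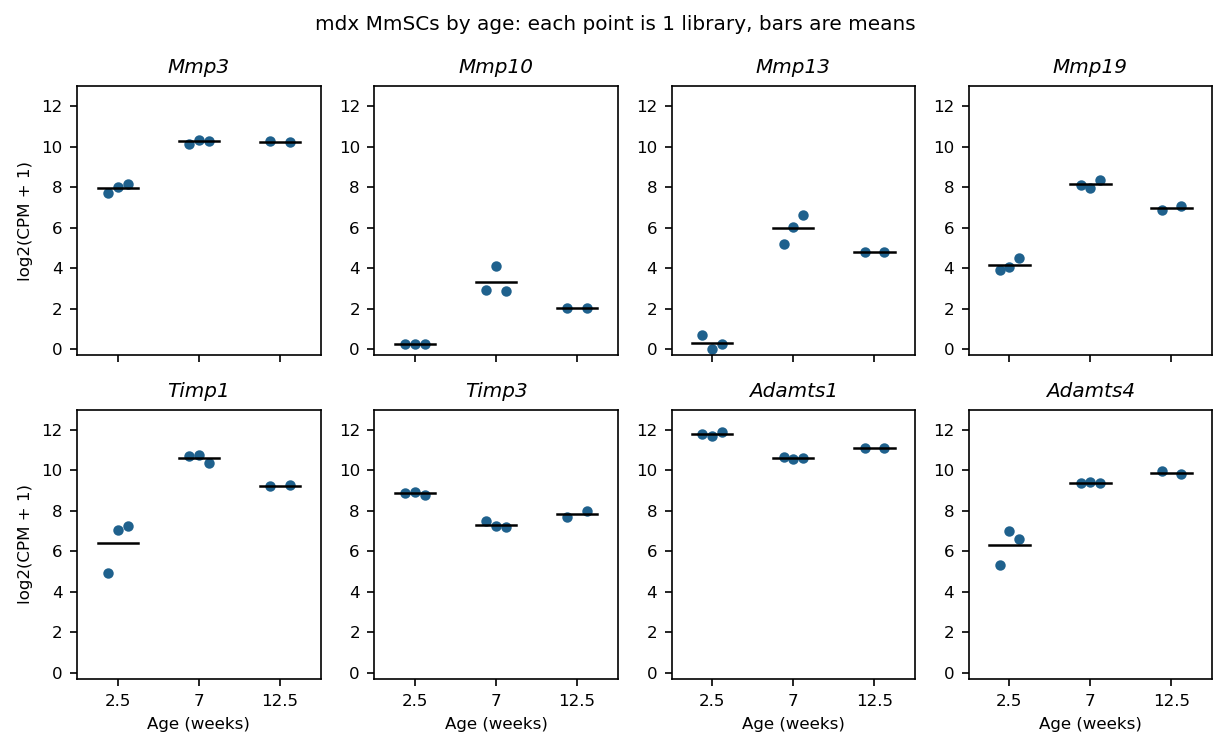
Level of 8 members in each library of DMDmdx MmSCs at 2.5, 7 and 12.5 weeks, as log2(CPM + 1). Each point is 1 library (n = 3, 3 and 2); Mmp13, Mmp10, Mmp19, Mmp3, Timp1 and Adamts4 lie higher at 7 weeks than at 2.5 weeks, and Timp3 and Adamts1 lower.

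Blockade of Cxcl5, a neutrophil-attracting chemokine, was compared with IgG in whole muscle at day 7. None of 32 tested members passed the test (0 called by edgeR and by DESeq2, beside 0.03% of all genes called, 0.03% higher and 0% lower). An unadjusted p under 0.05 was found for 6: Adamts5, Adamts6, Mmp9, Mmp12, Mmp13 and Mmp14. The share of all genes at that unadjusted cutoff is not given here, so the 6 have no background. Mmp13 had 71.3, 32.4 and 62.5 CPM after anti-Cxcl5, against 92.2, 91.0 and 102 CPM after IgG (-0.86 ± 0.24, adjusted p = 0.793). Mmp14 had 106, 86.8 and 82.7 CPM after anti-Cxcl5, against 66.0, 64.1 and 76.5 CPM after IgG (0.35 ± 0.15, adjusted p = 0.844). For both the libraries of the groups did not overlap, with Mmp13 on the lower and Mmp14 on the higher side. Nor did those of Adamts5, on the lower side, or of Adamts6, Mmp2, Mmp12 and Mmp27, on the higher side. The share of all genes without overlap is not given here, so the lack of overlap has no background. Mmp12 had 14.1, 176 and 24.9 CPM after anti-Cxcl5, against 3.31, 2.79 and 6.30 CPM after IgG (4.17 ± 0.91, adjusted p = 0.793). Mmp9 had 7.41, 101 and 7.91 CPM after anti-Cxcl5, against 6.61, 3.48 and 12.0 CPM after IgG. Replicate 2 of the anti-Cxcl5 group was far above the other libraries for both genes, and without it the change was 2.23 ± 0.37 (adjusted p = 0.143) for Mmp12 and 0.05 ± 0.44 (adjusted p = 0.991) for Mmp9. Every anti-Cxcl5 library lay above every IgG library for Mmp12, and the groups overlapped for Mmp9. The macrophage marker list was at 2061 to 2978 summed CPM after anti-Cxcl5 and 1467 to 2054 after IgG. The leukocyte list was at 392.5 to 686 after anti-Cxcl5 and 289 to 376 after IgG, and their part was not tested. Mmp2 made up 60.5 ± 4.69% of Mmp level per kilobase after anti-Cxcl5, against 59.6 ± 0.713% after IgG, and Mmp13 8.30 ± 3.45% after anti-Cxcl5, against 15.2 ± 0.175% after IgG (SD, n = 3 each).

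Loss of Il1b was read in MmSCs 1 day after injury. The targeted gene had 0, 0 and 0.194 CPM in Il1b-KO MmSCs, against 0.383 and 0.734 CPM in Il1b-WT MmSCs, which is too few reads in stroma to check the labels. None of 28 tested members passed the test (0 called by edgeR and by DESeq2; 1.21% of all genes called, 1.12% higher and 0.0909% lower), and 7 had an unadjusted p under 0.05: Adamts7, Adamts8, Adamts12, Adamts14, Mmp2, Mmp14 and Mmp16. All 7 had a positive fitted change, of 0.24 (Mmp14) to 1.07 (Adamts8) on the log2 scale, with adjusted p of 0.272 to 0.418. Their KO and WT libraries did not overlap except for Mmp2. Of the other members without overlap, Adamts19 was higher (0.62) and Adamts6, Adamts10 and Mmp11 were lower (-0.45, -0.23 and -0.55). The share of all genes at that unadjusted cutoff is not given here, so the 7 have no background. Timp1 had 1807, 1824 and 1804 CPM in Il1b-KO MmSCs, against 1631 and 1836 CPM in Il1b-WT MmSCs (0.07 ± 0.08, adjusted p = 0.822). Mmp3 had 1011, 807 and 951 CPM in Il1b-KO MmSCs, against 729 and 935 CPM in Il1b-WT MmSCs (0.16 ± 0.14, adjusted p = 0.731). Adamts4 had 1308, 1148 and 949 CPM in Il1b-KO MmSCs, against 1064 and 1026 CPM in Il1b-WT MmSCs (0.13 ± 0.12, adjusted p = 0.751). KO and WT libraries overlapped for Timp1, Mmp3 and Adamts4, and their fitted changes were each smaller than 0.3 on the log2 scale. The count of called members was 2 without Il1b-WT replicate 1, which leaves a single WT library.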

How the data were processed

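The authors deposited raw counts of reads per gene for 70 libraries, made with STAR 2.7.3a and featureCounts on mm10 (GRCm38) per the submitters' processing notes; the strand setting is not given in the sources used here. Gene lengths and overlaps came from GENCODE M21. Each of the 6 experiments was fitted separately in R 4.3.3 with edgeR 4.0.16 (TMM scaling, filterByExpr with a minimum count of 10, quasi-likelihood F-test), and p-values were adjusted by Benjamini-Hochberg over all tested genes, 11975 to 16374 per experiment. The scripts were tested on simulated data. CPM used the library total, without the TMM factors. These ran from 0.782 to 1.29 in the population experiment, so fitted changes can differ from ratios of the printed CPM. For genes with 0 counts in a group, a floor of 3 counts per library gave the bound; for 1 to 3 counts, a 95% binomial interval is given. Alternatives were RLE scaling, no low-count filter, the replicate number as a block, DESeq2 1.42.0 and leaving out each library. Members, lists and tests were chosen with earlier results of these data known. Members were named where called with no overlap between groups, up to 12 per comparison by size of change (5 for differences between populations), besides 19 genes named throughout; Adamts10 at rest, Mmp11 at 8 h, Mmp12 after anti-Cxcl5, and members named for an unadjusted p fell outside this and were chosen after their values were seen. Same-numbered libraries were checked for shared deviations: the numbers paired the Thy1.1 libraries (correlations 0.587 to 0.812) and the resting MmSC and CD31+ libraries.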

Additional observations from a re-analysis of the deposited data

Results flagged for a closer look

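The injury change in MmSCs differed from that in another population by an edgeR test of the difference itself, and up to 5 members with the largest differences are given for each; values are the MmSC change minus the other change on the log2 scale, with the MmSC change and then the other change beside it. Against CD31+ cells the difference was -4.48 for Adamts16 (adjusted p = 0.0139; -4.57 and -0.09), -3.82 for Adamts4 (adjusted p = 0.000478; 1.06 and 4.88), -3.58 for Mmp14 (adjusted p = 2.53e-06; -0.77 and 2.82), 2.77 for Adamts14 (adjusted p = 0.049; 0.17 and -2.60) and -2.41 for Adamts7 (adjusted p = 0.00338; -0.15 and 2.26). The Adamts16 difference was -2.29 (adjusted p = 0.443) without injured CD31+ replicate 3, and that of Adamts14 had an adjusted p of 0.0508 with RLE scaling and 0.0512 with the replicate number as a block. Against CD45+ cells it was -5.68 for Mmp27 (adjusted p = 0.000695; -2.84 and 2.84), -4.29 for Mmp14 (adjusted p = 1.59e-07; -0.77 and 3.52), 4.14 for Adamts6 (adjusted p = 0.000125; 1.0 and -3.14), 3.99 for Adamts14 (adjusted p = 0.000275; 0.17 and -3.82) and -2.96 for Mmp2 (adjusted p = 0.00119; -1.62 and 1.34). Mmp27 had few reads in CD45+ cells, with 41 counts over the injured libraries and 1 count over resting replicates 2 and 3. Mmp2 was low in resting CD45+ cells, as given above, and its change within CD45+ cells was itself not called. Against MuSCs it was 5.62 for Adamts8 (adjusted p = 0.00297; 3.91 and -1.71), -4.85 for Mmp23 (adjusted p = 0.00168; -2.22 and 2.63), -2.78 for Adamts2 (adjusted p = 0.0122; -1.54 and 1.25), -2.02 for Timp2 (adjusted p = 0.0026; -3.04 and -1.03) and 1.77 for Adamts1 (adjusted p = 0.00349; 0.85 and -0.91). The Adamts2 difference was -2.42 (adjusted p = 0.0518) without resting MmSC replicate 2, and with DESeq2 it had an adjusted p of 0.129. Adamts2 was low in resting MuSCs, as given above, and its change within MuSCs was itself not called.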

How the results depend on the processing

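No called change of a member turned direction under any alternative run; uncalled changes were not followed in this way. Without the low-count filter, the number of called members was 9 (5 with it) for Il-1b against Osm, 13 (8) for Osm with Il-1b against Osm, 11 (6) and 10 (6) for the MmSC injury change minus that of CD45+ cells and of MuSCs, 6 (0) for Thy1.1+ against Thy1.1-, 3 (0) for anti-Cxcl5 against IgG, 13 (7) for mdx 12.5 against 7 weeks and 2 (0) for Il1b-KO against Il1b-WT; the cause was not tested. DESeq2 called 10 (6) for the difference from CD45+ cells and 2 (0) for Thy1.1+. The replicate block gave 11 (0) for Thy1.1+, where the numbers pair the libraries, and moved no other count by over 1.5 times; with the Il-17A numbers crossed, the block gave 6 (6). Leaving out 1 library gave 3 to 7 (9) for TNFa, 9 to 13 (14) for Osm, 1 to 4 (6) for Il-17A, 8 to 13 (15) for Osm with Il-17A, 5 to 9 (9) for the difference from CD31+ cells, 6 to 9 (6) from CD45+ cells and 4 to 7 (6) from MuSCs, 0 to 1 (0) for Thy1.1+, 1 to 6 (7) for mdx 12.5 against 7 weeks and 0 to 2 (0) for Il1b-KO, and 8 to 11 (12) for the mixture at 2 h. RLE scaling moved the median of all genes by -0.11 in the CD31+ and -0.10 in the MuSC injury comparison. Groups of 1 to 3 libraries limit every comparison.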

Other observations

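MmSCs taken 1 day after cardiotoxin in separate experiments differed widely in some members, and the experiment and the mouse line cannot be told apart. Adamts1 had 145, 136 and 133 CPM in the injured MmSCs sorted beside other populations and 2751 and 3143 CPM in Il1b-WT MmSCs. Adamts4 had 33.6, 26.5 and 28.3 CPM beside other populations and 1064 and 1026 CPM in Il1b-WT MmSCs, and Adamts9 had 3.36, 1.67 and 2.59 and 41.6 and 35.1 CPM. Uninjured MmSCs differed as well: Adamts1 had 59.8, 54.2 and 77.3 CPM at day 0, 243 and 172 CPM after PBS and 3506, 3338 and 3876 CPM in DMDmdx mice at 2.5 weeks. These values come from libraries prepared in different experiments and were not tested against each other.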
